A study of Homo sapiens with 12 samples.

Results

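The genes described here are the targets of the transcription factor NRF2, together with the antioxidant and detoxifying enzymes they belong with, in A549 cells depleted of YAP and TAZ and in control cells. They were chosen by name, with earlier results of these data known, and all 40 named genes were found among the 60617 genes of the deposited tables. A549 is a human lung adenocarcinoma line, and YAP and TAZ are transcriptional coactivators that act mainly through TEAD proteins and that the Hippo kinase pathway holds back. The cells carried 1 of 2 siRNA combinations against YAP and TAZ, called siYAP/TAZ#1 and siYAP/TAZ#2, or the non-targeting control siCo, and RNA was taken 24 hours after transfection. Each of the 3 groups had 4 libraries, described by the series as biological replicates of the same line, so that p-values measure the spread between libraries of 1 line. Without a group of untransfected cells, what transfection itself does is shared by all 3 groups.

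NRF2, encoded by NFE2L2, is kept scarce by KEAP1, which presents it to a CUL3 ubiquitin ligase for degradation. When oxidants or electrophiles modify KEAP1, NRF2 persists, pairs with a small MAF protein and binds the antioxidant response element of genes for glutathione synthesis, NADPH supply, quinone and carbonyl reduction, iron storage and drug export. A549 cells carry a mutated KEAP1, so NRF2 is active in them without added stress, and in such tumours the programme is known for resistance to oxidants and to cytotoxic drugs.

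The deposited tables hold no sequence, so promoter sequence was taken from RefSeq (GRCh38.p14), which gave 37 windows of 300 bases for 29 of the 40 genes, each from 250 bases before to 50 after a transcription start. The core of the antioxidant response element, searched as TGACNNNGC on both strands, occurred in 11 of the 37 windows (29.7%), of 10 genes, and in 13.3% of 35116 such windows of all genes. The TEAD core GGAATG occurred in 13.5% of the members' windows and in 14.03% of all, and the AP-1 site TGANTCA, which can overlap the first motif, in 8.11% of the members' windows and 7.71% of all. The stretches below show cores that lie before the start in 7 of these genes. PGD and CBR1 also have such a core and are not shown. KEAP1 and TXNRD1 each have 2 such cores, of which 1 is shown. Each is 30 bases, 5′ to 3′ on the strand of the gene, with the core in capitals. A core on the opposite strand therefore starts with GC and ends with GTCA.
GPX2: acctgtttttGCTAAGTCAtcctggggatg
GCLM: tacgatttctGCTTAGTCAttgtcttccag
IDH1: cccctctcgcTGACTCCGCccatcccacgg
EPHX1: tgagattggcTGACTTGGCaggactgtgca
ME1: tctcctgccaTGACTCAGCgcttctcgcag
KEAP1: gcccggctctGCTTAGTCAtggtgacctgc
TXNRD1: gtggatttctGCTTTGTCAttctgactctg
They lie at chr14:64942848-64942877 (GPX2, minus strand), chr1:93909445-93909474 (GCLM, minus strand), chr2:208255195-208255224 (IDH1, minus strand), chr1:225825266-225825295 (EPHX1, plus strand), chr6:83431169-83431198 (ME1, minus strand), chr19:10502783-10502812 (KEAP1, minus strand) and chr12:104286920-104286949 (TXNRD1, plus strand). In ME1 the core overlaps TGANTCA. The genes shown include the one with the largest rise of all 40 (GPX2), and also KEAP1 and TXNRD1, which were not called in any comparison. A match is a description of the letters and not evidence of binding.

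Library totals ran from 29.6 M to 38.3 M estimated counts, and correlations of log2 CPM within groups from 0.979 to 0.991. YAP1 and WWTR1 (the gene of TAZ) were depleted in every treated library: YAP1 averaged 18.7 ± 1.43 CPM with siYAP/TAZ#1 and 17.4 ± 1.19 CPM with siYAP/TAZ#2, against 121 ± 4.03 CPM with siCo, while WWTR1 averaged 32.9 ± 1.14 CPM with siYAP/TAZ#1 and 32.4 ± 2.38 CPM with siYAP/TAZ#2, against 241 ± 9.71 CPM with siCo (SD, n = 4 each). The epithelial markers KRT7, KRT8, KRT18, KRT19 and EPCAM summed to 2787 to 4081 TPM with siYAP/TAZ#1, 2678 to 3886 TPM with siYAP/TAZ#2 and 2523 to 3643 TPM with siCo, nearly all of it keratin, with EPCAM at a mean of 1.01 TPM in siCo cells. Within these sums KRT7 was lower, at 1355, 1223 and 1673 TPM on average with siYAP/TAZ#1, siYAP/TAZ#2 and siCo (log2 -0.65 and -0.85 against siCo), and KRT19 higher, at 146, 185 and 77.2 TPM (log2 0.56 and 0.83), and their part in the results was not tested. The alveolar markers SFTPA1, SFTPB, SFTPC and NKX2-1 summed to 0.0910 to 0.309 TPM with siYAP/TAZ#1, 0.119 to 0.323 TPM with siYAP/TAZ#2 and 0.0222 to 0.117 TPM with siCo, with a mean of 0 for SFTPA1 in every group, so the defining alveolar transcripts were nearly absent. Markers of other cell types (COL1A1, COL1A2, PECAM1, PTPRC, CD68 and CD3E) summed to 43.4 to 67.2 TPM with siYAP/TAZ#1, 36.2 to 61.2 TPM with siYAP/TAZ#2 and 27.8 to 41.7 TPM with siCo, nearly all from COL1A1 and CD68, with a mean of 0 for CD3E in both treated groups, and their part in the results was not tested. The library siYAP/TAZ#2 replicate 1 stood apart, with a mean correlation of 0.9811 with its own group, where the other 11 libraries had 0.9858 to 0.9902. Results that it moves are given with and without it. In bulk RNA, fewer cells that express a gene and less of its RNA per cell cannot be told apart.

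The first question was how abundant these transcripts are in A549 cells. By mean TPM in siCo cells, 28 of the 40 members stood above the 90th percentile of the 14805 coding genes tested, 35 above the 75th and 39 above the 50th, with a median percentile of 95.8. The 40 genes were named as constitutively high in this KEAP1-mutant line, with earlier results of these data known. High ranks therefore partly follow from the choice. TPM is a level per transcript length and so allows genes to be ranked. The ferritin light and heavy chains FTL and FTH1, which store iron, led with 4882 ± 993 and 2394 ± 612 TPM in siCo cells (SD, n = 4), followed by the aldose reductase AKR1B1 with 713 ± 125 and the aldehyde dehydrogenase ALDH3A1 with 686 ± 105 TPM. At the low end, the carbonyl reductase CBR3 had 2.88 ± 0.482 TPM, at percentile 34.4, and the malic enzyme ME1 had 12.9 ± 3.26 TPM, at percentile 66.3. Neighbours in the order, such as AKR1B1 and ALDH3A1, differed by less than the spread between libraries.

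The 40 genes together took a larger share of coding RNA in the treated cells. Of the TPM of coding genes they held 5.43, 5.14, 5.35 and 5.45% with siYAP/TAZ#1, 4.51, 5.17, 4.96 and 5.10% with siYAP/TAZ#2, and 3.83, 3.83, 3.73 and 3.94% with siCo. All 8 treated libraries lay above all 4 control libraries, and the lowest treated one was siYAP/TAZ#2 replicate 1. The means were 5.34 ± 0.142% with siYAP/TAZ#1, 4.93 ± 0.294% with siYAP/TAZ#2 and 3.83 ± 0.088% with siCo (SD, n = 4 each). Of these the 2 ferritin chains made up 2.80 ± 0.102% with siYAP/TAZ#1, 2.50 ± 0.232% with siYAP/TAZ#2 and 2.02 ± 0.081% with siCo. Of the TPM of all genes the members held 2.26 ± 0.573% with siYAP/TAZ#1, 2.20 ± 0.585% with siYAP/TAZ#2 and 1.38 ± 0.276% with siCo. MicroRNA genes take 28.0 to 54.0% of deposited TPM with siYAP/TAZ#1, 26.2 to 55.2% with siYAP/TAZ#2 and 44.9 to 62.8% with siCo, and their part in the shares of all genes was not tested.

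**Figure D1:**
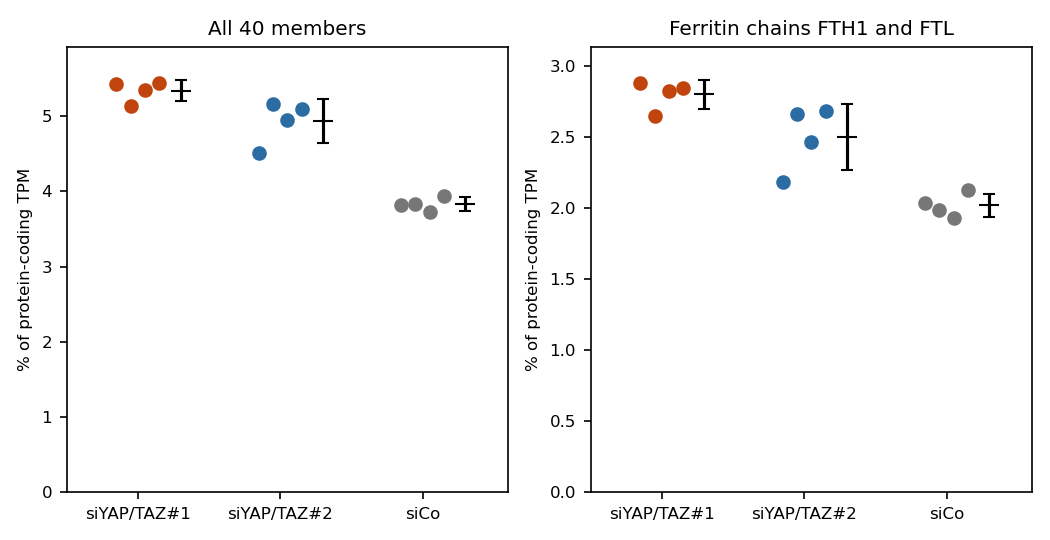
Share of the TPM of coding genes held by the 40 members (left) and by the ferritin chains FTH1 and FTL (right), in percent; 1 point is 1 library, and the bar beside each group is the mean with its SD. For the 40 members the treated libraries sit between 4.51 and 5.45%, above the siCo libraries at 3.73 to 3.94%.

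The second question was which of these genes changed when YAP and TAZ were depleted. From here on, a level is given in CPM after TMM scaling, which serves to compare 1 gene between libraries. Each change is on the log2 scale with its standard error, and a pair of changes gives siYAP/TAZ#1 against siCo first and siYAP/TAZ#2 against siCo second. A gene is called at an adjusted p under 0.05 in edgeR's quasi-likelihood test across all genes. With siYAP/TAZ#1, 28 of 40 members were higher than with siCo and 1 was lower, where 16.4% of the 21581 genes tested were higher and 18.5% lower. With siYAP/TAZ#2, 23 were higher and 4 lower, where 19.0% of all genes were higher and 19.2% lower. All 40 members passed the filter on low counts. The median change of the members was 0.34 with siYAP/TAZ#1 and 0.23 with siYAP/TAZ#2, while that of all genes was 0.02 in both comparisons.

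Of the 40 genes, 21 were higher with both combinations, 1 (GSR, glutathione reductase) was lower with both, and 1 (GCLM, a subunit of the enzyme that starts glutathione synthesis) was higher with siYAP/TAZ#1 and lower with siYAP/TAZ#2. Another 6 were higher with siYAP/TAZ#1 and not called with siYAP/TAZ#2, 2 (ALDH3A1 and ALDH1A1) the reverse, 2 (MAFG and SRXN1) were lower with siYAP/TAZ#2 and not called with siYAP/TAZ#1, and 7 were called in neither. Both comparisons use the same siCo libraries, so their agreement is not independent. How many of all genes were called alike with both was not counted, so these joint counts have no background beside them. In 32 members all siYAP/TAZ#1 libraries lay above all siCo libraries and in 2 below, where 18.0% and 20.7% of all genes did so. For siYAP/TAZ#2 these counts were 19 and 3, against 17.0% and 17.7% of all genes.

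The counts depend on scaling and on 1 library. In limma on log2(TPM + 1), 16 members were higher with siYAP/TAZ#1 and 15 with siYAP/TAZ#2, 11 with both, and 0 lower, with the median of all genes at 0.25 and 0.31. Of all 18464 genes in that fit, 1310 were higher and 138 lower with siYAP/TAZ#1, and 2731 higher and 172 lower with siYAP/TAZ#2. With library size alone, which moves the median of all genes to 0.20 and 0.21, 35 members were higher and 0 lower with siYAP/TAZ#1, and 30 higher and 1 lower with siYAP/TAZ#2. Of all 21581 genes, 5876 were then higher and 1905 lower with siYAP/TAZ#1, and 6538 higher and 2037 lower with siYAP/TAZ#2. Without siYAP/TAZ#2 replicate 1, 31 were higher and 2 lower with siYAP/TAZ#1 and 26 higher and 5 lower with siYAP/TAZ#2, and 25 were higher with both. Calls over all genes rose too. Of 22166 genes tested without that library, 4224 were higher and 4950 lower with siYAP/TAZ#1, and 4614 higher and 4893 lower with siYAP/TAZ#2. In the reported fit these counts were 3531 and 3999, and 4100 and 4144, of 21581 genes.

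**Figure D2:**
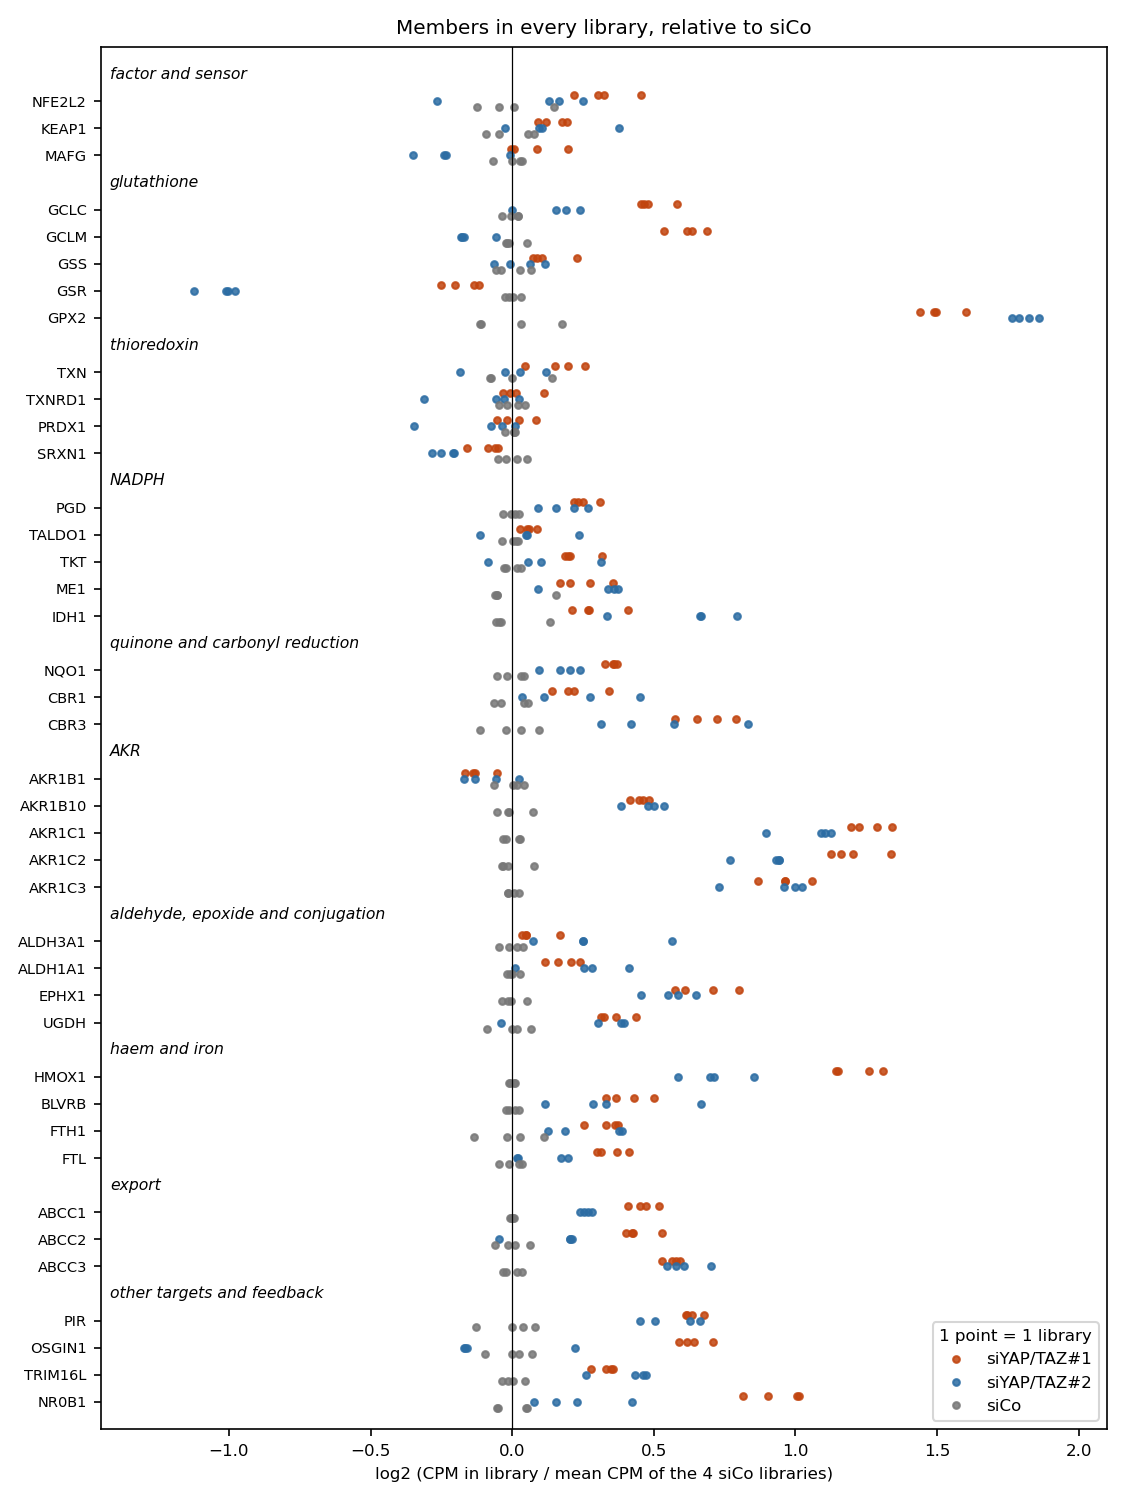
Every member in every library: the x axis is log2 of the CPM in a library over the mean CPM of the 4 siCo libraries, and 1 point is 1 library of siYAP/TAZ#1, siYAP/TAZ#2 or siCo, grouped by role down the page. Most treated points lie right of the siCo points, with GPX2 farthest and HMOX1 and the 3 AKR1C genes next with siYAP/TAZ#1; GSR lies left of them with both combinations.

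Of the factor and its sensor, NFE2L2 was called higher with siYAP/TAZ#1 only, and KEAP1 was called with neither combination. NFE2L2 (ENSG00000116044, chromosome 2, 177227595 to 177392697, minus strand) had 67.7, 63.7, 68.6 and 75.2 CPM with siYAP/TAZ#1, 45.7, 60.0, 61.5 and 65.2 CPM with siYAP/TAZ#2, and 50.3, 55.1, 53.1 and 60.8 CPM with siCo. All siYAP/TAZ#1 libraries lay above siCo, while siYAP/TAZ#2 overlapped it and its replicate 1 was the lowest of all 12. The change was 0.33 ± 0.095 with siYAP/TAZ#1 (adjusted p = 0.0131) and 0.08 ± 0.095 with siYAP/TAZ#2 (adjusted p = 0.543). Leaving out siYAP/TAZ#2 replicate 1 gave 0.19 for siYAP/TAZ#2 (adjusted p = 0.0301), and leaving out siCo replicate 1 gave 0.28 for siYAP/TAZ#1 (adjusted p = 0.0545). KEAP1 (ENSG00000079999, chromosome 19, 10486120 to 10503741, minus strand) had 107, 106, 101 and 99.7 CPM with siYAP/TAZ#1, 121, 91.9, 99.8 and 101 CPM with siYAP/TAZ#2, and 98.6, 97.1, 90.6 and 87.6 CPM with siCo. Its change of 0.15 ± 0.075 with either combination was not called (adjusted p = 0.156 and 0.147), though it was with siYAP/TAZ#1 once siYAP/TAZ#2 replicate 1 was left out (0.14, adjusted p = 0.0219) and with siYAP/TAZ#2 once replicate 2 of that group was (0.20, adjusted p = 0.0481), and with siYAP/TAZ#1 when only those libraries and siCo were fitted (0.17, adjusted p = 0.00862). With library size alone NFE2L2, KEAP1 and MAFG were all called higher with siYAP/TAZ#1.

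MAFG, a small MAF partner of NRF2 and itself an NRF2 target, had 213, 230.0, 201 and 200.1 CPM with siYAP/TAZ#1, 199.6, 169.8, 171 and 157 CPM with siYAP/TAZ#2, and 206, 201, 205 and 191 CPM with siCo. It fell by 0.20 ± 0.071 with siYAP/TAZ#2 (adjusted p = 0.034), where 1 library overlapped siCo, and was not called with siYAP/TAZ#1 (0.07 ± 0.071, adjusted p = 0.464). That fall lost its call when any of 7 single libraries was left out (adjusted p from 0.0513 to 0.12), and on the deposited TPM scale its sign turned.

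Among the glutathione genes the members went in different directions. GPX2 (ENSG00000176153, chromosome 14, 64939152 to 64942905, minus strand) encodes a glutathione peroxidase typical of gut epithelium and had 110.0, 111, 106 and 119 CPM with siYAP/TAZ#1, 135, 133, 139 and 142 CPM with siYAP/TAZ#2, and 39.98, 36.3, 36.2 and 44.2 CPM with siCo. The 3 groups did not overlap. The rises, 1.51 ± 0.068 (adjusted p = 1.62e-10) and 1.81 ± 0.068 (adjusted p = 1.51e-11), were the largest of the 40 genes in both comparisons and amounted to 2.84-fold and 3.50-fold.

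GSR (ENSG00000104687, chromosome 8, 30678061 to 30727999, minus strand), which returns oxidised glutathione to its reduced form at the cost of NADPH, had 266, 279, 257 and 283 CPM with siYAP/TAZ#1, 141, 152, 155 and 153 CPM with siYAP/TAZ#2, and 301, 313, 304 and 307 CPM with siCo. No library of any group overlapped another group. GSR fell by 1.03 ± 0.053 with siYAP/TAZ#2 (adjusted p = 5.75e-10), to 0.491 of its siCo level, and by 0.17 ± 0.052 with siYAP/TAZ#1 (adjusted p = 0.0156). The smaller fall lost its call without siYAP/TAZ#1 replicate 3 (-0.15, adjusted p = 0.0567) and was absent with library size alone, where the value was 0.0007. In limma on log2(TPM + 1) the change with siYAP/TAZ#2 was -0.49 with no call (adjusted p = 0.169).

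The first step of glutathione synthesis is made by a catalytic subunit, GCLC, and a modifier subunit, GCLM. GCLC had 181, 183, 184 and 198 CPM with siYAP/TAZ#1, 132, 147, 156 and 151 CPM with siYAP/TAZ#2, and 132, 134, 129 and 134 CPM with siCo. It rose by 0.50 ± 0.058 with siYAP/TAZ#1 (adjusted p = 5.51e-06), and its 0.15 ± 0.058 with siYAP/TAZ#2 was not called (adjusted p = 0.0538). It was called without replicate 1 of that group (0.20, adjusted p = 0.00118), with library size alone (0.34, adjusted p = 0.00206) and by DESeq2 (0.14, adjusted p = 0.0369). GCLM, given in full because its direction differed between the combinations, had 208, 198, 201 and 187 CPM with siYAP/TAZ#1, 114, 114, 124 and 115 CPM with siYAP/TAZ#2, and 127, 128, 127 and 134 CPM with siCo. The rise of 0.62 ± 0.053 (adjusted p = 1.86e-07) was clear of the spread. With siYAP/TAZ#2 it fell by 0.14 ± 0.053 (adjusted p = 0.0424), a call that was lost when any of 9 single libraries was left out (adjusted p from 0.054 to 0.147) or the replicate number was added as a block (-0.15, adjusted p = 0.0624), and the value was 0.04 with library size alone. GSS, which completes glutathione, had 0.13 ± 0.059 and 0.03 ± 0.059 with no call in either comparison (adjusted p = 0.116 and 0.753). In all, 3 of these 5 genes were higher and 1 lower with siYAP/TAZ#1, and 1 higher and 2 lower with siYAP/TAZ#2, against 4 higher and 0 lower, and 3 higher and 1 lower, with library size alone.

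The thioredoxin genes were the subgroup with no member higher in either comparison. SRXN1, sulfiredoxin, which repairs overoxidised peroxiredoxins, had 249, 255, 237 and 253 CPM with siYAP/TAZ#1, 229, 222, 229.5 and 217 CPM with siYAP/TAZ#2, and 274, 255, 261 and 267 CPM with siCo. It fell by 0.24 ± 0.05 with siYAP/TAZ#2 (adjusted p = 0.0012) and gave -0.09 ± 0.05 with siYAP/TAZ#1 (adjusted p = 0.192). TXN, thioredoxin itself, had 204, 184, 198 and 213 CPM with siYAP/TAZ#1, 157, 182, 194 and 175 CPM with siYAP/TAZ#2, and 169, 169, 178 and 196 CPM with siCo, with changes of 0.16 ± 0.073 and -0.01 ± 0.073 (adjusted p = 0.0933 and 0.926). It was called higher with siYAP/TAZ#1 without siCo replicate 4 (0.22, adjusted p = 0.0369) or siYAP/TAZ#2 replicate 1 (0.16, adjusted p = 0.0296). The peroxide-reducing PRDX1 had 400.4, 379, 389 and 418 CPM with siYAP/TAZ#1, 310.0, 384, 397 and 374 CPM with siYAP/TAZ#2, and 387, 395, 397 and 396 CPM with siCo. Apart from the low siYAP/TAZ#2 replicate 1, its groups overlapped, and its changes were 0.01 ± 0.068 and -0.10 ± 0.068. TXNRD1, the NADPH-dependent reductase of thioredoxin, gave 0.02 ± 0.068 and -0.09 ± 0.068. For TXNRD1 the 95% intervals ran from -0.11 to 0.15 and from -0.22 to 0.05. For PRDX1 they ran from -0.12 to 0.14 and from -0.24 to 0.03. Such intervals are somewhat narrow, so changes slightly beyond them are not excluded. With library size alone 1 of the 4 was higher with siYAP/TAZ#1 (TXN, 0.34, adjusted p = 0.0078) and SRXN1 was not called with siYAP/TAZ#2 (-0.05, adjusted p = 0.499); on the deposited TPM scale its sign turned.

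Genes that supply NADPH, the electron source of these reductases, rose by small amounts. IDH1, cytosolic isocitrate dehydrogenase, had 94.6, 94.8, 91.0 and 104 CPM with siYAP/TAZ#1, 99.3, 125, 136 and 125 CPM with siYAP/TAZ#2, and 76.2, 75.7, 76.5 and 86.3 CPM with siCo. All treated libraries lay above siCo, and the rises were 0.29 ± 0.084 (adjusted p = 0.0129) and 0.62 ± 0.084 (adjusted p = 2.04e-05). PGD, of the pentose phosphate pathway, had 819, 811, 802 and 854 CPM with siYAP/TAZ#1, 734, 802, 830.0 and 768 CPM with siYAP/TAZ#2, and 694, 702, 675 and 687 CPM with siCo, rising by 0.25 ± 0.052 (adjusted p = 0.00117) and 0.18 ± 0.052 (adjusted p = 0.0101). ME1, cytosolic malic enzyme, had 80.1, 78.2, 84.2 and 89.1 CPM with siYAP/TAZ#1, 74.1, 89.3, 90.1 and 88.0 CPM with siYAP/TAZ#2, and 66.8, 67.1, 67.0 and 77.5 CPM with siCo. It rose by 0.25 ± 0.074 (adjusted p = 0.0137) and 0.29 ± 0.074 (adjusted p = 0.00459), although siYAP/TAZ#2 replicate 1 fell below the highest siCo library. The rise of ME1 with siYAP/TAZ#1 lost its call when any of 4 single libraries was left out (adjusted p from 0.051 to 0.0541). Of the 2 enzymes of the non-oxidative branch, TKT rose with siYAP/TAZ#1 (0.23 ± 0.072, adjusted p = 0.0208) and gave 0.10 ± 0.072 with siYAP/TAZ#2 (adjusted p = 0.284; 0.29 and called with library size alone, adjusted p = 0.000256), with no call for the difference between the combinations (adjusted p = 0.316) unless siYAP/TAZ#2 replicate 1 was left out (0.19, adjusted p = 0.00774), and TALDO1 gave 0.06 ± 0.063 in both comparisons. The call of TKT was lost without siYAP/TAZ#1 replicate 2 (adjusted p = 0.0672) or siCo replicate 2 (adjusted p = 0.0556). Altogether 4 of 5 were higher with siYAP/TAZ#1 and 3 of 5 with siYAP/TAZ#2.

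The quinone and carbonyl reductases were all higher with both combinations. NQO1 (ENSG00000181019, chromosome 16, 69706996 to 69726951, minus strand), the quinone reductase most used as a readout of NRF2, had 1029, 1026, 1005 and 1036 CPM with siYAP/TAZ#1, 855, 923, 947 and 902 CPM with siYAP/TAZ#2, and 791, 825, 772 and 819 CPM with siCo. The 3 groups did not overlap. It rose by 0.35 ± 0.051 (adjusted p = 4.36e-05) and 0.18 ± 0.051 (adjusted p = 0.0106), 1.28-fold and 1.13-fold. CBR3, the least abundant member, had 5.68, 6.59, 5.998 and 6.30 CPM with siYAP/TAZ#1, 6.79, 4.74, 5.10 and 5.67 CPM with siYAP/TAZ#2, and 4.07, 3.76, 3.90 and 3.53 CPM with siCo, and rose by 0.69 ± 0.12 (adjusted p = 2.30e-04) and 0.55 ± 0.12 (adjusted p = 0.00153). CBR1 had 80.4, 88.8, 81.6 and 77.4 CPM with siYAP/TAZ#1, 95.9, 71.8, 84.8 and 75.8 CPM with siYAP/TAZ#2, and 67.1, 72.2, 73.0 and 68.2 CPM with siCo. It rose by 0.23 ± 0.08 in each comparison (adjusted p = 0.0368 and 0.0343). The call with siYAP/TAZ#1 was lost without any of 7 single libraries, with changes of 0.19 to 0.24 (adjusted p from 0.0566 to 0.12). The call with siYAP/TAZ#2 was lost without any of 4, with changes of 0.15 to 0.22 (adjusted p from 0.0558 to 0.0891).

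Of the 5 aldo-keto reductases, 4 were higher with each combination, and AKR1C1 had the next largest rise after GPX2 in both comparisons. AKR1C1, AKR1C2 and AKR1C3 are neighbours on chromosome 10 (between 4963253 and 5107686), reduce ketosteroids and lipid aldehydes, and are so alike in sequence that estimated counts can be shared among them, so their separate values are uncertain. AKR1C1 had 311, 291, 297 and 322 CPM with siYAP/TAZ#1, 236, 277, 271 and 273 CPM with siYAP/TAZ#2, and 125, 124, 129.6 and 129 CPM with siCo. AKR1C2 had 1267, 1199.8, 1229 and 1388 CPM with siYAP/TAZ#1, 938, 1049, 1057 and 1057 CPM with siYAP/TAZ#2, and 537, 545, 538 and 580.0 CPM with siCo. AKR1C3 had 502, 469.5, 502 and 536 CPM with siYAP/TAZ#1, 427, 499, 523 and 514 CPM with siYAP/TAZ#2, and 255, 261, 254 and 258 CPM with siCo. In each of the 3 genes every treated library lay above every siCo library, and siYAP/TAZ#2 replicate 1 was the lowest treated one.

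With siYAP/TAZ#1 the rises were 1.26 ± 0.06 for AKR1C1 (adjusted p = 2.92e-10), 1.21 ± 0.062 for AKR1C2 (adjusted p = 6.34e-10) and 0.97 ± 0.066 for AKR1C3 (adjusted p = 1.36e-08). With siYAP/TAZ#2 they were 1.06 ± 0.06 (adjusted p = 1.51e-09), 0.90 ± 0.062 (adjusted p = 1.21e-08) and 0.93 ± 0.065 (adjusted p = 1.54e-08). Their counts summed, which removes the uncertainty of the split among them, rose by 1.15 ± 0.062 (adjusted p = 1.03e-09) and 0.93 ± 0.062 (adjusted p = 8.72e-09). The paralog AKR1C4 was not part of the sum. AKR1B10, a retinal and lipid aldehyde reductase, rose by 0.45 ± 0.053 and 0.48 ± 0.053 (adjusted p = 5.04e-06 and 2.48e-06), and by 0.46 and 0.48 when summed with its close copy AKR1B15. AKR1B1, the aldose reductase of the polyol pathway and the most abundant of the 5 by TPM in siCo cells, gave -0.12 ± 0.056 and -0.08 ± 0.056 (adjusted p = 0.108 and 0.281). Without siYAP/TAZ#2 replicate 1, AKR1B1 was called lower with siYAP/TAZ#1 (-0.12, adjusted p = 0.026), whereas with library size alone it gave 0.05 and 0.10, with no call.

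Of 4 enzymes that handle aldehydes, epoxides and glucuronides, 2 were higher with siYAP/TAZ#1 and 4 with siYAP/TAZ#2. EPHX1, microsomal epoxide hydrolase, had 161, 172, 157 and 184 CPM with siYAP/TAZ#1, 158, 154, 145 and 166 CPM with siYAP/TAZ#2, and 103, 109.5, 105 and 104 CPM with siCo, without overlap between treated and control. It rose by 0.68 ± 0.062 (adjusted p = 3.69e-07) and 0.56 ± 0.062 (adjusted p = 2.24e-06). UGDH, which makes UDP-glucuronic acid, had 429, 417, 414 and 451 CPM with siYAP/TAZ#1, 324, 411, 435 and 438 CPM with siYAP/TAZ#2, and 313, 337, 333 and 349 CPM with siCo, with rises of 0.36 ± 0.08 (adjusted p = 0.0021) and 0.27 ± 0.08 (adjusted p = 0.0134). Only siYAP/TAZ#2 replicate 1 overlapped siCo, and the smaller rise lost its call without replicate 3 or 4 of that group (adjusted p = 0.0517 and 0.0509). ALDH1A1 oxidises retinal and had 1851, 1736, 1795 and 1890.3 CPM with siYAP/TAZ#1, 1615, 1946, 2134 and 1910.5 CPM with siYAP/TAZ#2, and 1601, 1581, 1593 and 1634 CPM with siCo. It was called higher with siYAP/TAZ#2 (0.25 ± 0.071, adjusted p = 0.0107) and not with siYAP/TAZ#1 (0.18 ± 0.071, adjusted p = 0.0566), where all 4 libraries lay above siCo and it was called, among other settings, without siYAP/TAZ#2 replicate 1 (adjusted p = 0.00272) or replicate 3 (adjusted p = 0.0403), with library size alone (0.36, adjusted p = 0.00416) and by DESeq2 (0.18, adjusted p = 0.0348). ALDH3A1 rose by 0.30 ± 0.081 with siYAP/TAZ#2 (adjusted p = 0.00842) and gave 0.08 ± 0.081 with siYAP/TAZ#1 (adjusted p = 0.524), where it was called with library size alone (0.25, adjusted p = 0.00278). For neither aldehyde dehydrogenase was the difference between the combinations called (adjusted p = 0.655 for ALDH1A1 and 0.0858 for ALDH3A1), though it was for ALDH1A1 without siYAP/TAZ#2 replicate 1 (-0.14, adjusted p = 0.036) and for ALDH3A1 without replicate 2 (-0.29, adjusted p = 0.0144).

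Among the haem and iron genes, HMOX1 (ENSG00000100292, chromosome 22, 35380361 to 35394214, plus strand), the inducible haem oxygenase, changed most. It had 917, 993, 922 and 1029.5 CPM with siYAP/TAZ#1, 750.0, 623, 673 and 680.5 CPM with siYAP/TAZ#2, and 413, 419, 412 and 417 CPM with siCo. The groups were fully separate, and the rises were 1.22 ± 0.062 (2.32-fold, adjusted p = 6.13e-10) and 0.71 ± 0.062 (1.64-fold, adjusted p = 1.60e-07). BLVRB, which reduces biliverdin and flavins, had 182, 199, 177 and 189 CPM with siYAP/TAZ#1, 223, 153, 172 and 177 CPM with siYAP/TAZ#2, and 142, 139, 143 and 139.6 CPM with siCo, rising by 0.41 ± 0.088 (adjusted p = 0.00163) and 0.36 ± 0.088 (adjusted p = 0.0035).

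The ferritin genes have many processed pseudogenes, so their counts are less certain than those of the other members. FTH1 had 2372, 2198, 2389.6 and 2319 CPM with siYAP/TAZ#1, 2099, 2012, 2416 and 2396 CPM with siYAP/TAZ#2, and 1879.9, 1681, 1822 and 1995 CPM with siCo, with rises of 0.33 ± 0.071 (adjusted p = 0.00159) and 0.27 ± 0.071 (adjusted p = 0.0057). FTL averaged 6789.7 ± 241 CPM with siYAP/TAZ#1, 5728 ± 387 CPM with siYAP/TAZ#2 and 5327 ± 134 CPM with siCo (SD, n = 4 each). It rose with siYAP/TAZ#1 (0.35 ± 0.058, adjusted p = 1.74e-04), and its 0.10 ± 0.058 with siYAP/TAZ#2 was not called (adjusted p = 0.177). It was called without replicate 1 of that group (0.14, adjusted p = 0.029) and with library size alone (0.295, adjusted p = 0.00408).

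The multidrug resistance proteins export glutathione conjugates and other anions. Of their 3 transcripts, 3 were higher with siYAP/TAZ#1 and 2 with siYAP/TAZ#2. ABCC3 had 829, 845, 809 and 838 CPM with siYAP/TAZ#1, 912, 853, 818 and 837 CPM with siYAP/TAZ#2, and 574, 568, 552 and 548 CPM with siCo, and rose by 0.57 ± 0.051 (adjusted p = 3.07e-07) and 0.61 ± 0.051 (adjusted p = 1.09e-07). ABCC1 had 579, 588, 562 and 606 CPM with siYAP/TAZ#1, 516, 499.6, 505 and 509.6 CPM with siYAP/TAZ#2, and 426, 425, 423 and 421 CPM with siCo, and rose by 0.46 ± 0.047 (adjusted p = 1.03e-06) and 0.26 ± 0.047 (adjusted p = 3.01e-04). In both genes the treated libraries were fully above the controls. ABCC2 had 720.3, 709.7, 722 and 776 CPM with siYAP/TAZ#1, 520.3, 623, 619 and 619 CPM with siYAP/TAZ#2, and 515, 541, 533 and 561 CPM with siCo. It rose by 0.45 ± 0.063 with siYAP/TAZ#1 (adjusted p = 4.02e-05). With siYAP/TAZ#2 its 0.15 ± 0.063 was not called (adjusted p = 0.0801), and it was called without the low replicate 1 (0.21, adjusted p = 0.000771) and with library size alone (0.34, adjusted p = 0.00369).

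Of the remaining targets, PIR, an iron-binding nuclear protein, had 46.0, 44.0, 44.0 and 44.5 CPM with siYAP/TAZ#1, 39.3, 45.4, 44.4 and 40.7 CPM with siYAP/TAZ#2, and 26.3, 30.4, 29.5 and 28.7 CPM with siCo. It rose by 0.64 ± 0.065 (adjusted p = 1.14e-06) and 0.57 ± 0.065 (adjusted p = 3.62e-06). NR0B1, an orphan nuclear receptor (DAX1) that acts as a corepressor, had 55.1, 62.9, 58.5 and 63.2 CPM with siYAP/TAZ#1, 41.9, 32.99, 36.7 and 34.8 CPM with siYAP/TAZ#2, and 30.2, 32.4, 32.4 and 30.2 CPM with siCo. Its 3 groups did not overlap, and it rose by 0.94 ± 0.075 (adjusted p = 8.79e-08) and 0.23 ± 0.075 (adjusted p = 0.026), the call of the smaller rise being lost without any of 3 single libraries, where it stayed at 0.21 to 0.22 (adjusted p from 0.0543 to 0.0643).

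TRIM16L is close in sequence to TRIM16, so its counts are uncertain. It had 233, 232, 221 and 229 CPM with siYAP/TAZ#1, 218, 246, 251 and 253 CPM with siYAP/TAZ#2, and 183, 180.5, 178 and 188 CPM with siCo, rising by 0.33 ± 0.056 (adjusted p = 2.13e-04) and 0.41 ± 0.056 (adjusted p = 2.22e-05), and by 0.24 and 0.29 when summed with TRIM16. OSGIN1, an oxidative stress-induced growth inhibitor given in full because the combinations differed, had 135, 144, 133 and 138 CPM with siYAP/TAZ#1, 103, 78.8, 79.1 and 78.6 CPM with siYAP/TAZ#2, and 88.4, 89.8, 92.7 and 82.6 CPM with siCo. It rose by 0.64 ± 0.08 with siYAP/TAZ#1 (adjusted p = 1.09e-05) and gave -0.06 ± 0.08 with siYAP/TAZ#2 (adjusted p = 0.623). Without siYAP/TAZ#2 replicate 1, the only high library of its group, OSGIN1 was lower with siYAP/TAZ#2 (-0.16, adjusted p = 0.00928).

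**Figure D3:**
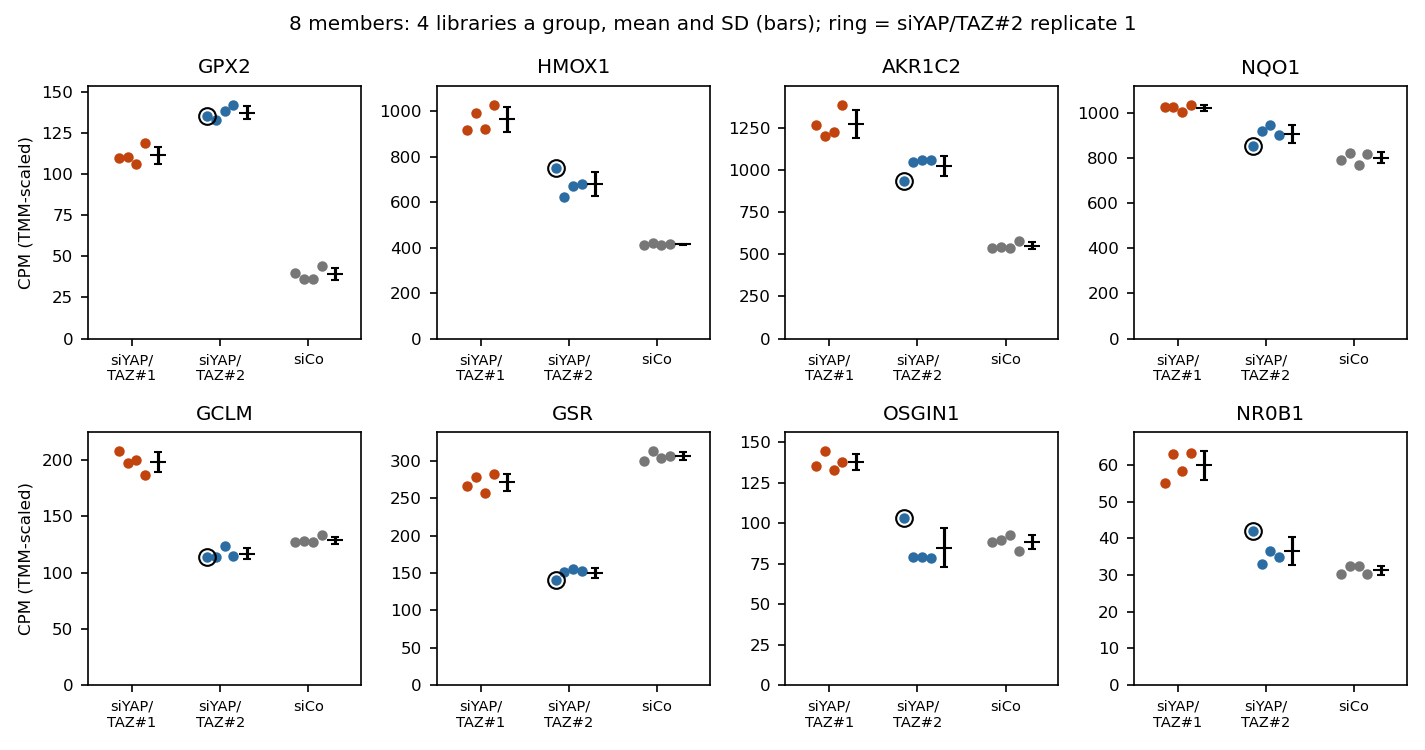
CPM after TMM scaling of 8 members in the 3 groups, with 1 point per library and the mean and SD beside each group; the ring marks siYAP/TAZ#2 replicate 1, and each axis starts at 0. GPX2, HMOX1, AKR1C2 and NQO1 are higher with both combinations, while GCLM, OSGIN1 and NR0B1 stand higher with siYAP/TAZ#1 than with siYAP/TAZ#2, and GSR lowest with siYAP/TAZ#2.

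The third question was whether the siRNA combinations had different effects on these genes. Comparing siYAP/TAZ#1 with siYAP/TAZ#2 directly, in which the controls cancel, 13 members were higher and 2 lower, where 6.92% of all genes tested were higher and 8.20% lower. YAP1 and WWTR1 themselves differed by 0.11 ± 0.069 (adjusted p = 0.367) and 0.02 ± 0.062 (adjusted p = 0.897). In 14 members all siYAP/TAZ#1 libraries lay above all siYAP/TAZ#2 libraries and in 1 below, where 8.91% and 9.31% of all genes did so. Without siYAP/TAZ#2 replicate 1 the counts were 16 higher and 4 lower, and with library size alone 11 higher and 3 lower. Of all genes, 2287 were higher and 2840 lower without that library, and 1270 higher and 1644 lower with library size alone. The reported fit had 1493 higher and 1769 lower.

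The largest differences were in GSR and GCLM, of the glutathione genes, and in NR0B1 and OSGIN1. GSR was 1.81-fold as high with siYAP/TAZ#1 as with siYAP/TAZ#2 (log2 0.85 ± 0.053, adjusted p = 8.87e-09), GCLM 1.70-fold (0.76 ± 0.053, adjusted p = 3.41e-08), NR0B1 1.64-fold (0.71 ± 0.074, adjusted p = 3.64e-06) and OSGIN1 1.62-fold (0.70 ± 0.08, adjusted p = 1.01e-05). HMOX1 followed at 1.42-fold (0.50 ± 0.061, adjusted p = 2.06e-05) and GCLC at 1.27-fold (0.35 ± 0.058, adjusted p = 4.46e-04). The differences of AKR1C2, ABCC2, MAFG, FTL, AKR1C1, ABCC1 and NQO1 were smaller, from 0.18 to 0.31. GPX2 and IDH1 were lower with siYAP/TAZ#1, by -0.30 ± 0.066 (adjusted p = 0.0041) and -0.33 ± 0.084 (adjusted p = 0.0113). The calls of MAFG, NQO1 and AKR1C1 in this comparison were each lost without any of 2 to 4 single libraries (adjusted p from 0.0548 to 0.0876).

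The other 25 members were not called different, which does not show that they respond alike. Their 95% intervals give the range: for AKR1C3 from -0.09 to 0.16, for AKR1B10 from -0.13 to 0.08, for ABCC3 from -0.14 to 0.06 and for PIR from -0.05 to 0.20. With the replicate number as a block NFE2L2 was called (0.25, adjusted p = 0.0324). Intervals of 4 of them lay to 1 side of 0 before adjustment, from 0.06 to 0.43 for NFE2L2, 0.03 to 0.32 for TXN, 0.05 to 0.25 for SRXN1 and -0.38 to -0.06 for ALDH3A1. SRXN1 was called by DESeq2 (0.15, adjusted p = 0.00906). Without siYAP/TAZ#2 replicate 1, SRXN1 (0.15, adjusted p = 0.0169), BLVRB (0.15, adjusted p = 0.0435) and TKT (0.19, adjusted p = 0.00774) were called higher as well. TRIM16L (-0.13, adjusted p = 0.0228) and ALDH1A1 (-0.14, adjusted p = 0.036) were then called lower.

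**Figure D4:**
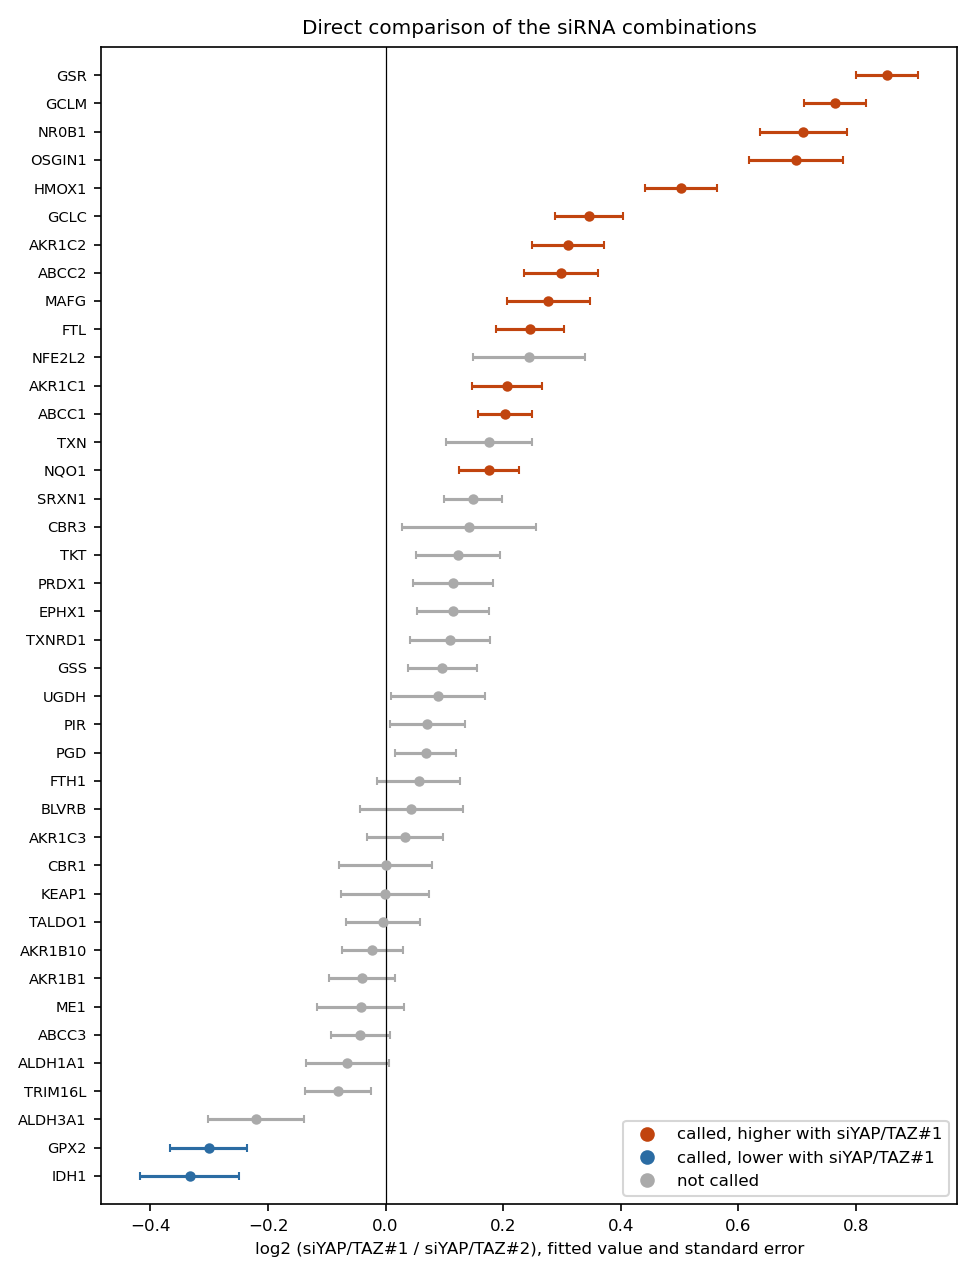
Fitted log2 ratio of siYAP/TAZ#1 over siYAP/TAZ#2 for each of the 40 members, sorted, with its standard error as the bar; colours mark members called higher or lower with siYAP/TAZ#1 and those not called. The 13 members called higher are led by GSR at 0.85, and GPX2 and IDH1 are the 2 called lower.

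Of 91 other genes of the pathway tested in 8 further lists, 26 were higher and 28 lower with siYAP/TAZ#1, and 30 higher and 27 lower with siYAP/TAZ#2, with median changes of 0.05 and 0.04. With library size alone the balance was 41 higher and 14 lower with siYAP/TAZ#1, and 46 higher and 15 lower with siYAP/TAZ#2. Of the glutathione transferases, 6 of 12 were higher and 0 lower with each combination (median 0.27 and 0.21), among them GSTM4 (0.79 ± 0.094 and 0.96 ± 0.094, adjusted p = 6.63e-06 and 6.07e-07), GSTM2 (0.80 ± 0.14 and 0.87 ± 0.14) and GSTZ1 (0.32 ± 0.07 and 0.30 ± 0.071). Among 13 further aldo-keto and aldehyde enzymes, 7 were higher and 1 lower with siYAP/TAZ#1, and 6 higher and 1 lower with siYAP/TAZ#2. AKR1B15, whose counts may be shared with AKR1B10, rose by 1.09 ± 0.076 and 1.16 ± 0.076, and mitochondrial ALDH2 by 0.48 ± 0.054 and 0.41 ± 0.054, while the retinal-oxidising ALDH1A3 fell by 0.55 ± 0.069 and by 0.64 ± 0.069.

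A mixed list held 15 genes around NRF2, among them relatives, partners, parts of its degradation and proteins bound by KEAP1. Counts over this list therefore do not measure NRF2 degradation. Of the 15, 9 were lower and 2 higher with siYAP/TAZ#1, and 7 lower and 3 higher with siYAP/TAZ#2 (median -0.25 and -0.19). With library size alone, 6 were lower and 2 higher, and 4 lower and 4 higher. On log2(TPM + 1) in limma the medians were 0.12 and 0.30 over 14 genes, with 0 lower and 1 higher with siYAP/TAZ#1 and 2 lower and 2 higher with siYAP/TAZ#2. The small MAF gene MAFK averaged 83.1 ± 4.61 CPM with siYAP/TAZ#1, 63.8 ± 9.03 CPM with siYAP/TAZ#2 and 137 ± 11.4 CPM with siCo (SD, n = 4 each), and so fell by 0.73 ± 0.089 (adjusted p = 8.53e-06) and by 1.11 ± 0.09 (adjusted p = 7.77e-08). PGAM5, a mitochondrial phosphatase bound by KEAP1, fell by 0.66 ± 0.067 and by 0.76 ± 0.067, and NFE2L3, a relative of NRF2, fell by 0.83 ± 0.13 and by 0.85 ± 0.13. Outside the naming rule and chosen after their values were seen, CUL3 and RBX1, parts of the ligase used by KEAP1, fell with siYAP/TAZ#1 (by 0.46 ± 0.094 and by 0.50 ± 0.095), while with siYAP/TAZ#2 they gave -0.19 ± 0.094 and -0.18 ± 0.095 with no call. The genes named here all fell, but changes in the list ran from -0.83 to 1.15 with siYAP/TAZ#1 and from -1.12 to 0.79 with siYAP/TAZ#2. In the list, 2 genes were called in opposite directions by the combinations. Any part of these genes in the changes of the members was not tested.

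Of 11 further thioredoxin and glutaredoxin genes, 1 was higher and 5 lower with siYAP/TAZ#1, and 4 higher and 4 lower with siYAP/TAZ#2, against 3 higher and 2 lower, and 6 higher and 3 lower, with library size alone. The nucleoredoxin NXN fell by 0.75 ± 0.061 and by 0.84 ± 0.061 and GLRX3 by 0.40 ± 0.068 and by 0.47 ± 0.068, while the glutaredoxin GLRX rose by 0.60 ± 0.08 and 0.51 ± 0.081. Of 10 further NADPH enzymes, 1 was higher and 6 lower with siYAP/TAZ#1, and 2 higher and 5 lower with siYAP/TAZ#2, against 4 higher and 3 lower, and 4 higher and 2 lower, with library size alone. RPIA of the pentose phosphate pathway fell by 0.86 ± 0.081 and by 0.74 ± 0.08 and the folate enzyme MTHFD2 by 0.62 ± 0.087 and by 0.66 ± 0.088, whereas the mitochondrial transhydrogenase NNT rose by 0.28 ± 0.092 and 0.64 ± 0.092. Of 11 further glutathione and peroxide enzymes, 3 were higher and 2 lower with siYAP/TAZ#1, and 5 higher and 1 lower with siYAP/TAZ#2. The lipid peroxide reductase GPX4 rose by 0.22 ± 0.07 and 0.19 ± 0.07 and the secreted GPX3 by 0.35 ± 0.12 and 0.43 ± 0.12, while PRDX6 fell by 0.50 ± 0.074 with siYAP/TAZ#1 and gave -0.14 ± 0.074 with siYAP/TAZ#2, with no call.

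Of 11 further haem and iron genes, 3 were higher and 3 lower with siYAP/TAZ#1, and 3 higher and 6 lower with siYAP/TAZ#2, against 5 higher and 0 lower, and 3 higher and 3 lower, with library size alone. The iron exporter SLC40A1 (ferroportin), an NRF2 target, averaged 10.0 ± 1.31 CPM with siYAP/TAZ#1, 12.997 ± 2.31 CPM with siYAP/TAZ#2 and 3.62 ± 0.527 CPM with siCo (SD, n = 4 each), a rise of 1.46 ± 0.15 (adjusted p = 9.99e-07) and 1.84 ± 0.15 (adjusted p = 6.28e-08). The iron importer SLC11A2 fell by 1.12 ± 0.075 with siYAP/TAZ#2 and gave -0.18 ± 0.073 with siYAP/TAZ#1, with no call, and the ferrireductase STEAP3 fell by 0.30 ± 0.05 and by 0.36 ± 0.05. Of 8 further transporters, 3 were higher and 2 lower with siYAP/TAZ#1, and 1 higher and 3 lower with siYAP/TAZ#2, against 6 higher and 1 lower, and 3 higher and 2 lower, with library size alone. SLC3A2, the heavy chain shared by the cystine importer, fell by 0.29 ± 0.063 and by 0.71 ± 0.064 and the glutamine importer SLC1A5 by 0.37 ± 0.071 and by 0.53 ± 0.071, while ABCC4 rose by 0.46 ± 0.071 and 0.25 ± 0.071. SLC7A11, the light chain of the cystine importer and a well-known NRF2 target, was named after its values were seen: it averaged 238 ± 14.3 CPM with siYAP/TAZ#1, 151 ± 25.8 CPM with siYAP/TAZ#2 and 207 ± 7.40 CPM with siCo (SD, n = 4 each), and fell by 0.46 ± 0.097 with siYAP/TAZ#2 (adjusted p = 0.00135), while siYAP/TAZ#1 gave 0.20 ± 0.097 with no call (adjusted p = 0.134).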

How the data were processed

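RNA of 12 libraries was analysed. Per the submitters' processing notes, Trim Galore 0.6.4, kallisto 0.4.6 and GRCh38.p13 were used, with no role given. How transcripts were summed to genes, and whether strand was kept, is not given in the sources used here. For each library the authors deposited estimated counts without scaling and TPM values. After rounding, the estimated counts went into edgeR 4.0.16 (R 4.3.3) with filterByExpr, TMM scaling, group as the only term over all 12 libraries, the quasi-likelihood F test and Benjamini-Hochberg adjustment over the 21581 genes kept. The step was tested on simulated data. No 2 libraries of a group agreed within sampling noise (chi-square per degree of freedom 3.68 to 77.5), so all were kept.

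Members and lists were chosen with earlier results of these data known. Values in every library are given for NFE2L2, KEAP1 and up to 3 members of each subgroup by the adjusted p of the mean of both combinations against siCo; GCLM and OSGIN1 were added after their values were seen, and other lists name up to 3 genes by the same p. Of 98 genes in 8 other lists, 97 were matched and 91 tested; SOD2 matched 2 identifiers and was left out. Coordinates of genes are those of GENCODE v29 (GRCh38). Alternatives were DESeq2 1.42.0, limma 3.58.1 on log2(TPM + 1) or log2(TPM + 0.1) of genes with a mean TPM of at least 0.5 or of all genes, other scalings, filters and sets of libraries, a replicate block and summed paralogs. The fit on TPM divided by TMM factors was chosen after seeing the data. The list medians and counts carry no test.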

Additional observations from a re-analysis of the deposited data

Results flagged for a closer look

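Of 120 groups of 4 libraries examined (40 members in 3 groups), 12 held a library far from the other 3, its gap to the nearest being above Dixon's 95% critical share of the range, which chance gives in about 1 in 20 groups, here 6. Of these, 5 were in siYAP/TAZ#2 replicate 1: ME1 at 74.1 CPM (the others 88.0 to 90.1), AKR1C1 at 236 CPM (271 to 277), AKR1C2 at 938 CPM (1049 to 1057), ABCC2 at 520.3 CPM (619 to 623) and OSGIN1 at 103 CPM (78.6 to 79.1). In siYAP/TAZ#1 replicate 2, TKT stood at 2153 CPM (1968 to 1990.4) and ALDH3A1 at 1737 CPM (1583 to 1598). In siCo replicate 4, GCLM stood at 134 CPM (127 to 128), ME1 at 77.5 CPM (66.8 to 67.1) and IDH1 at 86.3 CPM (75.7 to 76.5). PRDX1 stood at 387 CPM in siCo replicate 1 (395 to 397) and GCLM at 124 CPM in siYAP/TAZ#2 replicate 3 (114 to 115).

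For 15 members the change with siYAP/TAZ#1 differed from that with siYAP/TAZ#2 in edgeR's quasi-likelihood test. The change with siYAP/TAZ#1 minus that with siYAP/TAZ#2 was 0.85 for GSR, 0.76 for GCLM, 0.71 for NR0B1, 0.70 for OSGIN1, 0.50 for HMOX1, 0.35 for GCLC, 0.31 for AKR1C2, 0.30 for ABCC2, 0.28 for MAFG, 0.25 for FTL, 0.21 for AKR1C1, 0.20 for ABCC1, 0.18 for NQO1, -0.30 for GPX2 and -0.33 for IDH1.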

How the results depend on the processing

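Of 2745 values of single members under alternatives, 2499 kept their direction and call or had a call in neither (84 of them with another sign), 186 lost and 45 gained a call, and 15 with a call in the reported fit changed sign. The sign changes were GSR with siYAP/TAZ#1 (0.0007 with library size alone; 0.2434, 0.2416 and 0.2416 on log2(TPM + 0.1), log2(TPM + 1) and that scale without a filter) and, with siYAP/TAZ#2, GCLM (0.0427; 0.4892, 0.4741 and 0.4741; 0.0799 on TPM divided by TMM factors), MAFG (0.3156, 0.3093 and 0.3093) and SRXN1 (0.2052, 0.2025 and 0.2025); the cause was not tested. On the same TPM scales 16, 16 and 10 members were called with siYAP/TAZ#1 and 15, 15 and 12 with siYAP/TAZ#2, all higher and 0 lower, and 0 between the combinations in limma (edgeR called 15; on log2(TPM + 1) 1333 of 18464 genes had an unadjusted p under 0.05); medians were 0.70, 0.69 and 0.69, and 0.63, 0.62 and 0.62. Library size alone gave medians of 0.52 and 0.41. Lower members with siYAP/TAZ#1 were 0 with library size alone, without a filter and on TPM divided by TMM factors; with siYAP/TAZ#2 they were 1 with library size alone and 2 without a filter, on TPM divided by TMM factors and with only the groups compared. The share of coding TPM, 5.34, 4.93 and 3.83% in siYAP/TAZ#1, siYAP/TAZ#2 and siCo, differs from that of all TPM by its denominator.

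Leaving out 1 library at a time, members called ran from 26 to 33, 23 to 31 and, between the combinations, 13 to 20; higher from 25 to 31, 20 to 26 and 11 to 16; lower from 0 to 2, 2 to 5 and 2 to 4; medians from 0.32 to 0.37 and from 0.20 to 0.25. The highest counts all came without siYAP/TAZ#2 replicate 1, as did the highest counts over all genes. With a replicate block, 28 were higher and 1 lower with siYAP/TAZ#1, 23 and 3 with siYAP/TAZ#2 and 14 and 2 between the combinations; it ended the call of GCLM with siYAP/TAZ#2 and gave one to NFE2L2 between the combinations, and changed no other call of a member. Same-numbered libraries shared deviations with correlations of -0.153 to 0.208 and others of -0.283 to 0.204. The pairs of replicate 4 had 0.193 (siCo with siYAP/TAZ#1), 0.148 (siCo with siYAP/TAZ#2) and 0.208 (siYAP/TAZ#1 with siYAP/TAZ#2). Overlapping ranges cannot decide whether a number marks a shared batch. Depth limits CBR3 most, the least abundant member.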
